A study of Homo sapiens with 2 samples.

Results

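APOBEC3A, APOBEC3B, APOBEC3C, APOBEC3D, APOBEC3F, APOBEC3G and APOBEC3H, together with CDA, were followed across 6 human breast cancer cell lines and between the single cells of each line. The genes were taken by symbol from the deposited feature list, where all 8 were found among 36601 genes. APOBEC3 enzymes remove the amino group from cytosine in single-stranded DNA, which leaves uracil behind. They restrict retroviruses and mobile elements, and in tumours their activity leaves characteristic C-to-T and C-to-G changes. CDA, cytidine deaminase, acts on free nucleosides instead: it returns cytidine and deoxycytidine to the uridine pool in pyrimidine salvage and inactivates cytidine analogues such as gemcitabine and cytarabine.

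Single-cell RNA sequencing with a droplet-based 3′ kit was run on 2 pools of cultured cells at passages between 3 and 5, for which the labels name no treatment. One pool held MDA-MB-231 with the luminal-type lines MDA-MB-453 and BT-474, and HCC38, Hs578T and MDA-MB-436 made up the other. MDA-MB-231 and the lines of the second pool are triple-negative. Each line was stained with its own multiplexing oligo before pooling, with 15000 cells loaded per pool, and the 2 samples of the series are the gene expression library and the oligo library of the same cells. Each line is 1 culture seen in 1 pool, so the data allowed no test between lines, line and pool cannot be told apart for lines of different pools, and every interval below is a 95% interval that covers counting error only.

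The labels do not state which oligo marked which line, so the 6 barcode groups were named from marker genes. The BT-474-like group led its pool for 10 of 10 markers of that line, the MDA-MB-453-like group for 5 of 5, the HCC38-like group for 5 of 5 and the Hs578T-like group for 6 of 6. The MDA-MB-231-like group led for 4 of 6. The MDA-MB-436-like group led for 5 of 5 and had RB1, which that line is known to have lost, at 5.03 counts per 1000000 UMIs (CPM), but it also held MMP1, a gene of the MDA-MB-231 list, at 38.2 CPM. Of 17605 barcodes, 15547 had at most 20% mitochondrial UMIs and were kept, with 70035248 to 96605074 UMIs per group. Between the pools, 22 barcode sequences occurred in both, and within a pool 0 were shared.

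Only CDA and APOBEC3C reached 10 CPM in a group, so 2 of the 8 genes counted as measured. Each was set against the median of the other 5 groups, which gave 12 gene and group pairs. Of these pairs, 3 were higher by 2-fold or more, where 13.6% of all pairs of measured genes and groups were. Another 3 were lower by as much, where 12.7% of all pairs were. The 6 became 5 with doublets and mixed cells removed and 5 with a pseudocount of 10 CPM, and CDA in HCC38-like cells lay just past the limit, at a log2 ratio of -1.01. Both CDA and APOBEC3C were high in some triple-negative lines and low in the luminal ones, but they led in different lines.

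**Figure D1:**
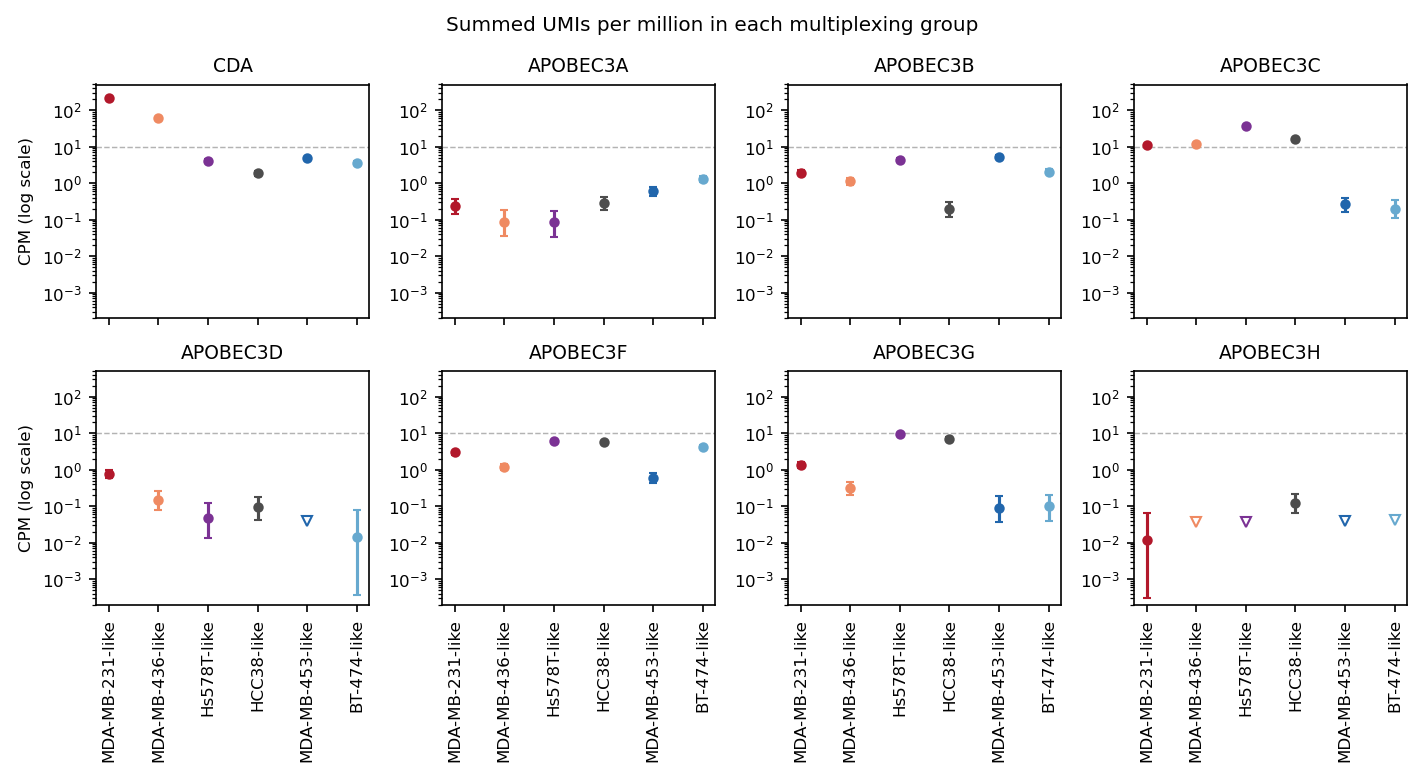
CPM of each gene (log scale) in the 6 groups, from UMIs summed over the kept barcodes. Points carry exact Poisson 95% intervals, open triangles mark the floor of 3 UMIs where no UMI was found, and the dashed line is 10 CPM. CDA stood at 217 CPM in MDA-MB-231-like cells and 59.6 CPM in MDA-MB-436-like cells, and APOBEC3C was highest in Hs578T-like cells at 37.5 CPM.

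CDA was highest in MDA-MB-231-like cells, at 217 CPM (213.9 to 220.1). MDA-MB-436-like cells followed at 59.6 CPM (57.9 to 61.3), and the other groups were far lower: 4.78 CPM in MDA-MB-453-like, 4.04 CPM in Hs578T-like, 3.58 CPM in BT-474-like and 1.87 CPM in HCC38-like cells. The MDA-MB-231-like level was 3.64-fold that of MDA-MB-436-like cells (3.53 to 3.76), and the MDA-MB-436-like level was 12.5-fold that of MDA-MB-453-like cells (11.2 to 13.9). On the log2(CPM + 1) scale, MDA-MB-436-like cells lay 1.85 below the highest other group and 3.59 above the median of the other 5. The neighbours Hs578T-like and BT-474-like did not differ beyond counting error, with a ratio of 1.13 (0.954 to 1.33).

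The low CDA values were set beside RNA that leaks between cells of a pool. Over 10 genes found almost only in MDA-MB-231-like cells, BT-474-like cells held a median of 1.39% of the MDA-MB-231-like level (interquartile range 1.18 to 2.03) and MDA-MB-453-like cells 1.90% (1.75 to 2.31). CDA stood at 1.65% and APOBEC3C at 1.81% in BT-474-like cells, and they stood at 2.2% and 2.36% in MDA-MB-453-like cells. The other 3 values lay within the range of those genes, and APOBEC3C in MDA-MB-453-like cells lay just above it. In the other pool, CDA in HCC38-like cells was 3.15% of the MDA-MB-436-like level, below the median of 6.92% over 33 genes. In Hs578T-like cells it was 6.78%, above the median of 2.93% and the upper quartile of 5.93%. With doublets and mixed cells removed, the CDA level was 2.28 CPM in MDA-MB-453-like, 2.48 CPM in BT-474-like and 3.55 CPM in Hs578T-like cells, and APOBEC3C was 0.149 CPM in MDA-MB-453-like cells.

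Cells were thinned to 10000 UMIs each to compare shares, which left out 16 to 101 shallower cells per group. A CDA UMI was then found in 76.6% of MDA-MB-231-like cells (75 to 78.1) and in 33.4% of MDA-MB-436-like cells (31.4 to 35.4). The other 4 groups lay between 1.82% and 3.38%, among them the luminal MDA-MB-453-like cells at 2.40% and BT-474-like cells at 2.84%, whose median depths before thinning were 20306 and 28472 UMIs. Without thinning, 91.6% of MDA-MB-231-like and 51.7% of MDA-MB-436-like cells had a CDA UMI, at median depths of 26286 and 30199 UMIs.

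CDA counts were also uneven between cells of the same line. In thinned MDA-MB-436-like cells the variance was 1.86 times the mean, where counting alone gives 1, and this ranked at percentile 99 among the 200 genes of nearest mean. The 10% of cells with most held 51.4% of the CDA UMIs. In MDA-MB-231-like cells the variance was 2.25 times the mean, at percentile 97. The APOBEC3 genes with enough counts had ratios of 0.971 to 1.14. APOBEC3G in HCC38-like cells ranked highest of these, at percentile 90.5, and APOBEC3C in Hs578T-like cells, at 1.09, ranked at percentile 68.5.

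**Figure D2:**
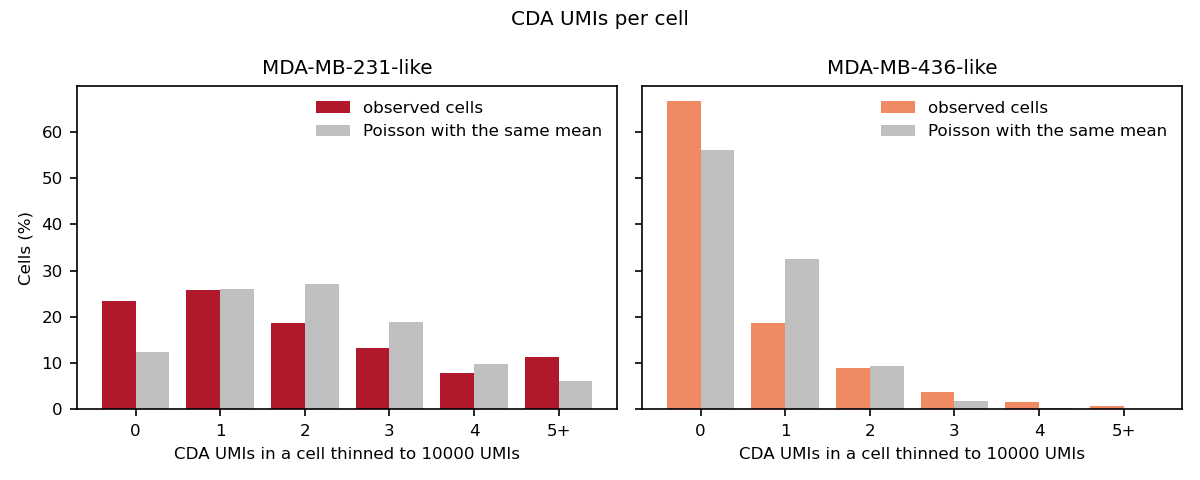
Share of cells (%) by number of CDA UMIs after thinning to 10000 UMIs per cell, observed (coloured bars) beside a Poisson distribution of the same mean (grey bars). In MDA-MB-436-like cells 66.6% had no CDA UMI and 0.671% had 5 or more, where the Poisson shares are 56.1% and 0.0333%. In MDA-MB-231-like cells 23.4% had none, where the Poisson share is 12.4%.

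CDA lies on chromosome 1 at 20588948 to 20618908 on the plus strand (GENCODE release 29, GRCh38). GENCODE starts the gene 149 bases upstream of the RefSeq start at 20589097. The stretch ahead of both starts, chr1:20588847-20588947 on the plus strand of GRCh38.p14, is shown because CDA differed between cells together with some interferon-induced genes, as described below. It was read from the RefSeq promoter table used here, in which 2 of the 8 genes were matched.
CDA upstream: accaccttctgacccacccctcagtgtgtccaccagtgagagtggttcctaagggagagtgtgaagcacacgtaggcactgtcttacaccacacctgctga
No base is in capitals because none of 8 motifs searched on both strands matched. They were the interferon response element, TGANTCA (AP-1), TGACNNNGC (antioxidant response element), the NF-kB site, TATAAA (the core promoter box), CCAAT (a binding site of NF-Y), GGGCGG (the Sp1 site) and TTTCCCGC (E2F). Among 35116 RefSeq promoters, the 101 bases before the start held these at 1.22%, 2.79%, 5.19%, 34.2%, 5.02%, 18.2%, 31.5% and 0.538%, in the same order. For CDA, 149 bases lie between the stretch shown and the RefSeq start, so its window is not placed like those of the other promoters. The absence of a match says only that these letters are not in the CDA window. Of 16 genes within 250 kb of CDA, 6 were measured, and 1 of them, the mitophagy kinase PINK1, was at least 2-fold higher in MDA-MB-231-like cells, at 56.5 CPM and a log2 ratio of 1.43 to the median of the others. Hs578T-like cells, where CDA was low, had a similar PINK1 level of 53.5 CPM. Over all genes, 1207 of 10901 measured ones were 2-fold higher in MDA-MB-231-like cells. None of the 6 was 2-fold higher in MDA-MB-436-like cells, where 1572 of the 10901 were.

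Profiles near that of CDA over the 6 groups were ranked by Euclidean distance of log2(CPM + 1) among 8669 genes that reached 20 CPM. The nearest was PODXL, which encodes the surface sialomucin podocalyxin, at 47.5 CPM in MDA-MB-231-like and 46.1 CPM in MDA-MB-436-like cells and at a distance of 2.91. PAX8-AS1, SAA1, LGALS3BP, OSBPL3, RAMP1, AL161431.1 and C6orf52 followed, at distances of 3.17 to 3.67. None of these 8 profiles was among the first 8 by Pearson r over the 6 groups, where STK40 (r of 0.99), RAB28 and CKAP5 led. For APOBEC3C the nearest profile was much closer, TMEM255B at a distance of 0.731, followed by APOL6, LHFPL6, KIRREL1 and WIPF1. For APOBEC3B, whose level was low throughout, the nearest were FOXP1-IT1, P2RY6, C19orf57, GRAMD4 and SNPH, at 2.25 to 2.87.

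The 7 APOBEC3 genes lie side by side on the plus strand of chromosome 22, from APOBEC3A at 38952741 to the end of APOBEC3H at 39104067. APOBEC3C, a single-domain enzyme with modest antiviral activity, was highest in Hs578T-like cells at 37.5 CPM (36.2 to 38.9). HCC38-like cells had 16.1 CPM, MDA-MB-436-like cells 11.9 CPM and MDA-MB-231-like cells 11.0 CPM, and the last pair did not differ beyond counting error (ratio 1.08, 0.988 to 1.19). The luminal groups were at 0.260 CPM in MDA-MB-453-like and 0.2 CPM in BT-474-like cells, so the lowest triple-negative group was 42.3-fold above the higher luminal one (27.3 to 69.6). That group, MDA-MB-231-like, and both luminal groups came from the same pool.

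APOBEC3G, the enzyme best known for restricting HIV that lacks Vif, was also a gene of 2 triple-negative groups. It stood at 9.25 CPM in Hs578T-like and 7.05 CPM in HCC38-like cells (ratio 1.31, 1.18 to 1.46), then at 1.32 CPM in MDA-MB-231-like cells and at 0.316 CPM or less in the other 3. APOBEC3F, another antiviral member, was at 6.01 CPM in Hs578T-like and 5.71 CPM in HCC38-like cells, which did not differ beyond counting error (ratio 1.05, 0.930 to 1.19). Unlike APOBEC3C and APOBEC3G, it was also present in luminal BT-474-like cells at 4.10 CPM, with 2.94 CPM in MDA-MB-231-like, 1.19 CPM in MDA-MB-436-like and 0.586 CPM in MDA-MB-453-like cells.

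APOBEC3B, the nuclear member linked to mutagenesis in breast tumours, had another order again. It was highest in luminal MDA-MB-453-like cells at 5.29 CPM (4.79 to 5.83), followed by Hs578T-like cells at 4.29 CPM (3.86 to 4.76). BT-474-like cells had 2.07 CPM and MDA-MB-231-like cells 1.92 CPM, with no difference beyond counting error (ratio 1.08, 0.856 to 1.35). MDA-MB-436-like cells had 1.12 CPM, and HCC38-like cells 0.197 CPM, 19 UMIs in all.

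The remaining members were scarce. APOBEC3A, the other member linked to tumour mutagenesis, was at 1.31 CPM in BT-474-like and 0.599 CPM in MDA-MB-453-like cells and at 0.280 CPM or less elsewhere. In BT-474-like cells with at most 10% mitochondrial UMIs, APOBEC3A stood at 0.578 CPM and APOBEC3B at 3.47 CPM, so their values there move with that limit. APOBEC3D reached 0.75 CPM in MDA-MB-231-like cells and at most 0.152 CPM in the others. APOBEC3H had 13 UMIs in all, of which 12 were in HCC38-like cells and 1 in MDA-MB-231-like cells. With 0 UMIs in the other 4 groups, a level of up to 0.0428 CPM per group was not detectable.

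Some of these values may include reads of a neighbour, or may lack reads shared with one. An annotated APOBEC3A transcript, ENST00000618553.1, runs from 38957522 to 38992778 and ends inside APOBEC3B. In the last 500 bases of an APOBEC3B transcript, ENST00000333467.3, 76.3% of 50-base words are shared with it, and the kit reads this end. For APOBEC3D, 100% of these words are shared with the overlapping annotation AL022318.4. The ends of APOBEC3C, APOBEC3H, CDA and the transcript ENST00000308521.9 of APOBEC3F shared 0%. APOBEC3G shared 8.87%, and another APOBEC3F transcript shared 18.0% with APOBEC3G. How such reads were assigned is not given in the sources used here, so APOBEC3A, APOBEC3B and APOBEC3D are reported as uncertain. Of 20 genes within 250 kb of the cluster, 8 were measured, and none was 2-fold higher in MDA-MB-231-like or MDA-MB-436-like cells. Over all 10901 measured genes, 1207 were in MDA-MB-231-like and 1572 in MDA-MB-436-like cells. In Hs578T-like cells, where APOBEC3C, APOBEC3F and APOBEC3G were highest, SYNGR1 (95.1 CPM), SUN2 (65.4 CPM) and NPTXR (13.6 CPM) were also highest. The other measured neighbours were highest in other groups, and PDGFB was at 0.204 CPM in Hs578T-like cells.

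Cells of each group were next ranked by summed UMIs of gene lists, and each gene was compared between the top and the bottom of 4 equal sets of cells. The lists hold no APOBEC3 gene and no CDA. Beside most ratios stands the share of genes with like UMI totals (within 2-fold) that passed 1.5-fold the same way. Over the 2 measured genes, 36 comparisons gave 2 that were higher and 2 that were lower at 1.5-fold, and these 4 are given below. Over all measured genes in the same comparisons 3.31% were higher and 1.57% lower. With the scarcer members included, 36 of 150 comparisons were higher and 17 lower. No share over all genes was computed for these 150, and scarce genes often pass 1.5-fold, so these counts are not read as a result about the members. Of genes with totals like that of APOBEC3D in MDA-MB-231-like cells, 37.3% were higher by mitochondrial share and 38.7% lower by G2/M genes.

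APOBEC3B was higher in cells rich in G2/M transcripts in 4 of the 5 groups with at least 50 UMIs of it, and in the other the interval spanned 1. In BT-474-like cells it had 104 UMIs (4.84 CPM) in the top set and 5 UMIs (0.321 CPM) in the bottom set, a ratio of 15.1 (6.26 to 47.4), where 11.8% of genes with like totals were higher. Ranked by G1/S genes, the same cells had 85 and 3 UMIs, a ratio of 21.4 (7.06 to 105.6), beside 14.0% of genes higher. This ratio was 11.7 with doublets and mixed cells removed and 6.96 between 2 equal sets of cells. BT-474-like cells were also the group with the lowest summed G2/M level, 2637 CPM against 4637 to 7750 CPM in the other groups.

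By G2/M genes, the APOBEC3B ratio was 3.05 in Hs578T-like cells (2.09 to 4.55; 6.58% of genes higher) and 2.33 in MDA-MB-231-like cells (1.34 to 4.23; 7.26%). It was 2.18 in MDA-MB-453-like cells (1.58 to 3.05; 9.53%). In MDA-MB-436-like cells it was 2.01, but with 24 and 10 UMIs the interval spanned 1 (0.925 to 4.70; 14.5% of genes higher). With doublets and mixed cells removed, the 5 ratios lay between 1.54 and 25.2. Between 2 equal sets of cells they were 1.68 in Hs578T-like, 1.27 in MDA-MB-436-like and 9.85 in BT-474-like cells.

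APOBEC3A went the other way in BT-474-like cells. It had 10 UMIs in the top set by G2/M genes and 35 in the bottom set, a ratio of 0.207 (0.0915 to 0.427), where 36.5% of genes with like totals were lower. By G1/S genes it had 13 and 37 UMIs, a ratio of 0.265 (0.129 to 0.510), with 27.2% of genes lower. Lower values were thus common among scarce genes in these cells. APOBEC3F also had a ratio of 0.544 there by G2/M genes (0.382 to 0.769; 27.5% of genes lower). Cells in the top G2/M set held a median of 37152 UMIs and those in the bottom set 26696. Ranked by total UMIs instead, the same cells had an APOBEC3A ratio of 0.473 (0.240 to 0.938; 23.9% of genes with like totals lower) and an APOBEC3B ratio of 1.96 (1.14 to 3.54; 12.2% higher). The APOBEC3F ratio was 0.854, and its interval spanned 1 (0.598 to 1.23).

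APOBEC3G was higher in cells rich in interferon transcripts in MDA-MB-231-like, Hs578T-like and HCC38-like cells. In MDA-MB-231-like cells it had 51 UMIs (2.57 CPM) in the top set by interferon genes and 9 UMIs (0.395 CPM) in the bottom set, a ratio of 6.50 (3.17 to 15.0; 24.2% of genes with like totals were higher). The ratio was 3.23 with doublets and mixed cells removed, 3.74 with BST2 left out of the score and 2.53 between 2 equal sets of cells. In Hs578T-like cells APOBEC3G stood at 12.7 CPM in the top set and 6.64 CPM in the bottom set, a ratio of 1.91 (1.55 to 2.37; 3.90% of genes higher). In HCC38-like cells it stood at 9.67 CPM and 5.43 CPM, a ratio of 1.78 (1.43 to 2.22; 8.03%). Between 2 equal sets of cells the ratio was 1.55 in Hs578T-like cells and 1.37, under 1.5-fold, in HCC38-like cells.

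APOBEC3F moved the same way in 2 of these groups, by 1.56-fold in Hs578T-like cells (1.19 to 2.04; 7.02% of genes higher) and 1.71-fold in MDA-MB-231-like cells (1.18 to 2.51; 17.8%). APOBEC3C was 1.95-fold higher in MDA-MB-231-like cells, at 15.0 CPM in the top and 7.72 CPM in the bottom interferon set (1.61 to 2.36; 7.42% of genes higher). In Hs578T-like cells its ratio was 1.36, in HCC38-like cells 1.10 and in MDA-MB-436-like cells 1.02, none past 1.5-fold. By G2/M genes, APOBEC3G was lower in Hs578T-like cells, at 6.24 CPM in the top and 13.2 CPM in the bottom set (ratio 0.472, 0.381 to 0.584; 9.42% of genes lower), and APOBEC3F had a ratio of 0.601 there (0.466 to 0.772; 14.3%).

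**Figure D3:**
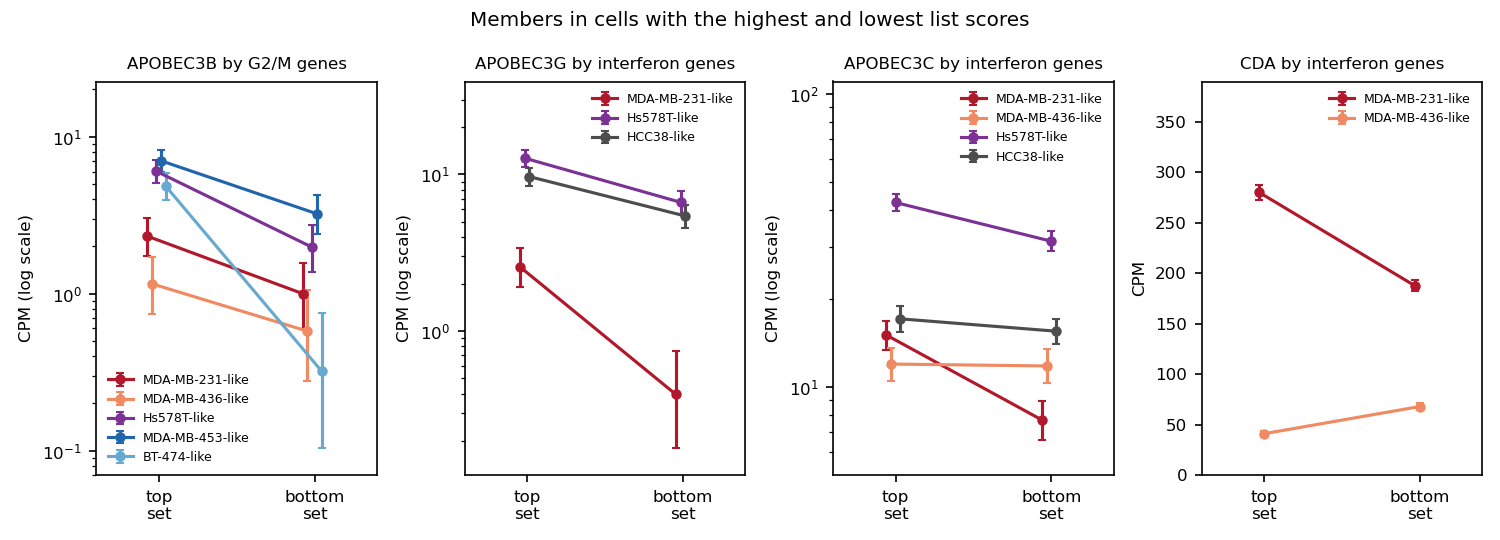
CPM of APOBEC3B, APOBEC3G, APOBEC3C and CDA in the top and the bottom of 4 equal sets of cells ranked by the named gene list, with exact Poisson 95% intervals (log scale for the APOBEC3 genes, linear scale from 0 for CDA). Lines join the sets of 1 group. APOBEC3B stood at 4.84 CPM in the top and 0.321 CPM in the bottom set of BT-474-like cells, and CDA by interferon genes had ratios of 1.49 in MDA-MB-231-like and 0.603 in MDA-MB-436-like cells.

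CDA did not follow the interferon genes in the same way in its 2 lines. In MDA-MB-231-like cells it stood at 280.1 CPM in the top interferon set and 187.5 CPM in the bottom set, a ratio of 1.49 (1.44 to 1.55; 2.24% of genes with like totals were past 1.5-fold), just under 1.5-fold, and 1.51 with BST2, a gene of the list, left out of the score. In MDA-MB-436-like cells it stood at 40.9 CPM and 67.9 CPM, a ratio of 0.603 (0.551 to 0.658), where 0.421% of genes with like totals were lower. This second ratio was 0.936 once BST2 was left out. The mitochondrial share also split the lines: CDA was lower in the MDA-MB-231-like set with the highest share (171.6 and 263.0 CPM, ratio 0.652, 0.625 to 0.681; 2.82% of genes lower). It was higher in that of MDA-MB-436-like cells (73.3 and 47.4 CPM, ratio 1.55, 1.42 to 1.68; 0.361% of genes higher). Between 2 equal sets of cells all 4 ratios kept their direction but lay under 1.5-fold. By interferon genes they were 1.25 in MDA-MB-231-like and 0.751 in MDA-MB-436-like cells, and by mitochondrial share 0.741 in MDA-MB-231-like and 1.38 in MDA-MB-436-like cells. With doublets and mixed cells removed, the MDA-MB-231-like ratio by mitochondrial share was 0.684, also under 1.5-fold. Whether these opposite directions differ between cultures of the lines was not tested.

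In the luminal groups, CDA had interferon ratios of 4.05 in BT-474-like (2.74 to 6.16; 9.36% of genes with like totals higher) and 3.00 in MDA-MB-453-like cells (2.18 to 4.18; 5.11%). With doublets and mixed cells removed they were 1.69 in BT-474-like and 1.3 in MDA-MB-453-like cells, and with BST2 left out of the score 3.77 and 5.94. As given above, CDA was 1.65% of the MDA-MB-231-like level in BT-474-like and 2.2% in MDA-MB-453-like cells, within the range of leaked RNA. The interferon list summed to 2108 CPM in the pool mate MDA-MB-231-like, 828.4 CPM in MDA-MB-453-like and 295 CPM in BT-474-like cells. Whether leaked or mixed RNA raised both the score and CDA was not tested.

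MDA-MB-436-like cells were then divided into 746 with a CDA UMI and 1489 without, all thinned to 10000 UMIs. Of 8406 genes at 10 CPM or more in either set, 76 (0.904%) were higher by 1.5-fold or more in the cells with CDA and 96 (1.14%) were lower by as much. These 172 became 260 at a limit of 10% mitochondrial UMIs and 390 at 5000 UMIs per cell. TIMP1, MMP1, SERPINB2 and AKR1C1 were among those higher, and BST2, which encodes tetherin, was among those lower. A cell without a CDA UMI at this depth may still express the gene.

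By correlation with CDA over 7888 genes, the 10 most positive were TIMP1, FBXO32, BHMT2, PPIA, CSTB, UCHL1, PTGES, CAPG, AKR1C1 and TXN, with r of 0.23 to 0.28. TIMP1, an inhibitor of matrix metalloproteinases, had 1597 CPM in cells with CDA and 857.4 CPM in cells without (ratio 1.86, 1.82 to 1.91). AKR1C1, an aldo-keto reductase, had 137.8 and 63.0 CPM (ratio 2.19, 2.00 to 2.39), and PTGES, prostaglandin E synthase, had 205.6 and 127.1 CPM. These correlations are weak and come from sparse counts, so they only describe the ranking.

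Larger ratios, of genes picked after their values were seen, were those of the long non-coding RNA CASC19 at 2.88 (2.18 to 3.83) and the collagenase MMP1 at 2.71 (2.36 to 3.10), which was 2.29 on the log2 scale at 20000 UMIs. MMP3 was at 2.36, the elastase inhibitor PI3 at 2.29 and the plasminogen activator inhibitor SERPINB2 at 2.2. A UMI of SERPINB2 was found in 33.4% of cells with CDA and 16.8% of cells without. The ratio of DHRS2, with a log2 value of 1.64, rests on few cells, since 54.6% of its UMIs came from 1 cell, and at a depth of 20000 UMIs it was -1.41.

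The 5 most negative correlations were those of RPS20, BST2, HMGB1, RPS28 and RPS27, with r of -0.33 to -0.23. BST2, an interferon-induced surface protein that holds back budding viruses, had 18.8 CPM in cells with CDA and 151.4 CPM in cells without, a ratio of 0.124 (0.104 to 0.147). Seen from the other side, a CDA UMI was found in 8% of the 500 cells with a BST2 UMI (5.78 to 10.7) and in 40.7% of the 1735 without (38.4 to 43.1). The ribosomal protein gene RPS20 (ratio 0.598) and the chromatin protein gene HMGB1 (0.598) were also lower. EPB41L3 at 0.190, CCND2 at 0.308 and MGST2 at 0.325, picked after their values were seen, were lower too.

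The pattern was smaller within cells that had no BST2 UMI. Among 706 such cells with CDA and 1029 without, 36 genes were higher by 1.5-fold and 66 lower of 8392, a division chosen after the data were seen. TIMP1 had an r of 0.23, AKR1C1 of 0.17 and RPS20 of -0.25 there. The log2 ratio of RPS20 was -0.52 there and -0.74 in all cells, and that of FBXO32 was 0.42 there and 0.77 in all cells, so both lay under 1.5-fold in the cells without BST2.

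**Figure D4:**
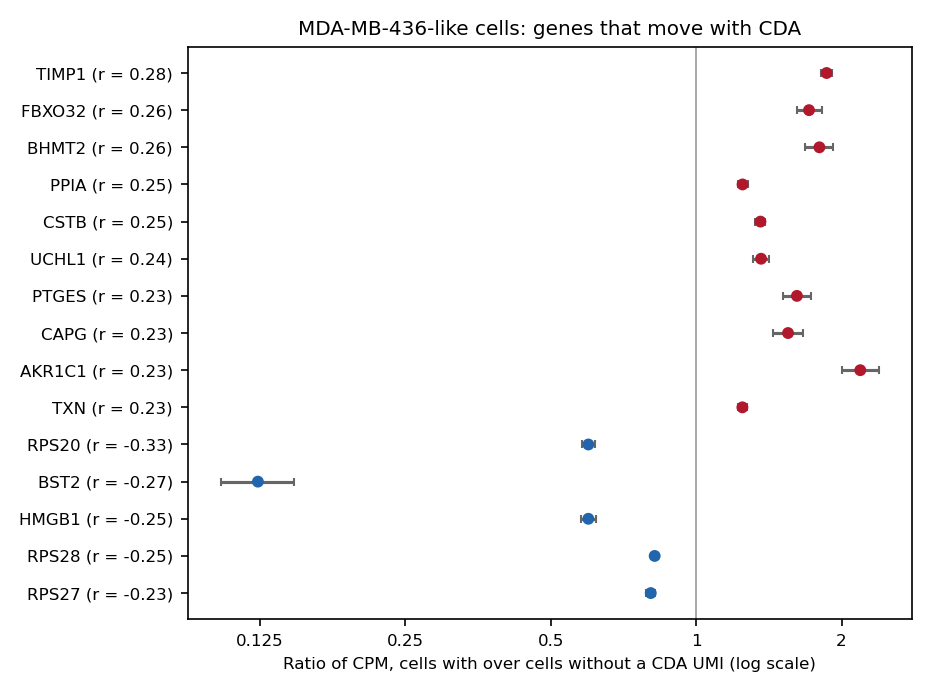
Ratio of CPM (log scale) in MDA-MB-436-like cells with over cells without a CDA UMI, for the 10 genes with the most positive and the 5 with the most negative correlation with CDA, with exact conditional 95% intervals and Pearson r across cells in brackets. BST2 stood lowest at 0.124 and AKR1C1 highest at 2.19.

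By list, 0 of 27 interferon genes at 10 CPM were higher in MDA-MB-436-like cells with CDA and 5 were lower, with a median log2 ratio of -0.22 beside -0.01 over all genes. Of 23 NF-kB and cytokine genes 0 were higher and 1 was lower. Of 37 G2/M genes and 29 G1/S genes, 0 passed in either direction. Likewise 0 of 25 genes of pyrimidine salvage and the nucleotide pool and 0 of 20 genes of uracil and base excision repair passed. DCK, the kinase that activates deoxycytidine and gemcitabine, had 13.7 CPM with CDA and 12.1 CPM without (ratio 1.13, 0.878 to 1.45). The cells with CDA had a median mitochondrial share of 8.26% and 31868 UMIs, and the cells without had 7.06% and 30056 UMIs. The MDA-MB-231 marker list, which includes MMP1, summed to 71.2 CPM in the cells with CDA and 29.4 CPM in the cells without. Most of this was MMP1 alone, at 67.4 and 24.9 CPM, a gene at only 0.0352 CPM in the MDA-MB-231-like group itself. The lists of the pool mates HCC38 and Hs578T summed to 11.1 and 144.0 CPM with CDA and to 12.5 and 127.5 CPM without.

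Neighbouring genes moved together along some chromosomes. In windows of 20 Mb with at least 20 genes, 12 of 140 had a median log2 ratio of 0.2 or more in size between MDA-MB-436-like cells with and without CDA, a summary added after the data were seen. The median was 0.32 at 80 to 100 Mb and 0.27 at 120 to 140 Mb of chromosome 5 but -0.30 at 0 to 20 Mb of that chromosome. It was 0.32 at 220 to 240 Mb of chromosome 2, 0.29 at 20 to 40 Mb of chromosome 7 and 0.26 at 0 to 20 Mb of chromosome 10. The window that holds CDA, 20 to 40 Mb of chromosome 1, stood at -0.05. Within cells without a BST2 UMI, 6 of the 140 windows passed 0.2.

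In MDA-MB-231-like cells the same division gave 2228 cells with CDA and 682 without, and other genes led. Of 8232 genes, 36 (0.437%) were higher by 1.5-fold or more and 16 (0.194%) lower. Among those higher, picked after their values were seen, the interferon-induced genes OASL (ratio 4.81, 3.06 to 7.98), ISG20 (2.88), IFIT2 (2.17), ISG15 (2.10), IFI44 (2.08) and IFIT3 (1.99) stood beside UCA1 (2.53) and TSPAN8 (2.25). An OASL UMI was found in 4.26% of cells with CDA and 1.76% of cells without. ISG15, a ubiquitin-like modifier, had 519.0 CPM in cells with CDA and 247.1 CPM in cells without. Of 29 interferon genes at 10 CPM, 9 were higher and 0 lower, with a median log2 ratio of 0.23 beside -0.02 over all genes.

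Several genes split the lines. In MDA-MB-436-like cells ISG15 had a ratio of 0.768 and ISG20 of 0.546 between cells with and without CDA. BST2 had a ratio of 0.990 in MDA-MB-231-like cells (0.935 to 1.05), TIMP1 1.03 and RPS20 0.984. By correlation, S100A11, SH3BGRL3 and C19orf33 led in MDA-MB-231-like cells with r of 0.27 to 0.30, and the 5 most negative were mitochondrial transcripts such as MT-CO3 (r of -0.23). The difference between the lines was not tested. The cells with CDA had a median mitochondrial share of 6.15% and 26783 UMIs, and the cells without had 6.79% and 25258 UMIs. Only 1 of 139 windows passed 0.2.

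No difference of an APOBEC3 gene by CDA went beyond counting error in either line. APOBEC3C had 12.1 CPM with CDA and 11.0 CPM without in MDA-MB-436-like cells (ratio 1.10, 0.837 to 1.43), and 10.9 and 10.7 CPM in MDA-MB-231-like cells (1.02, 0.781 to 1.34). For the scarcer APOBEC3B and APOBEC3F the intervals spanned 1 in both lines and were wider, such as 0.391 to 2.68 for APOBEC3B in MDA-MB-436-like cells.

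The genes around these enzymes were described in MDA-MB-436-like cells relative to the median of the other 5 groups, where 14.4% of 10901 measured genes were higher by 2-fold or more and 12.0% lower. Of 29 measured genes of pyrimidine salvage and the nucleotide pool, 5 were higher and 1 lower. UPB1, the last enzyme of uracil breakdown, was at 19.3 CPM, with a log2 ratio of 3.91, and NT5E, the ecto-nucleotidase CD73, was at 127.5 CPM with 2.75. NT5E was also at 162.5 CPM in MDA-MB-231-like and 115.9 CPM in Hs578T-like cells. RRM2B, a ribonucleotide reductase subunit, was at 7.26 CPM with -1.23, and NME2 was at -0.73. Of 22 genes of uracil and base excision repair, 0 were higher and 4 lower: UNG, the main uracil glycosylase, at 16.5 CPM (-1.53), LIG3 at 11.0 CPM (-1.48), POLH (-1.06) and NEIL1 at 1.35 CPM, just past 2-fold. OGG1 and MUTYH had the highest ratios of that list at 0.84 and 0.92, below 2-fold. Among 8 measured genes of other deaminases, 2 were higher, ADAT2 at 16.3 CPM (1.58) and ADA at 8.34 CPM (1.49). ADA was higher still in both pool mates, at 52.3 CPM in HCC38-like and 10.7 CPM in Hs578T-like cells. The lowest ratios of the list, those of ADARB1 and ADAR, were at -0.31 and -0.29.

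Lists of cell state also differed between the groups. In MDA-MB-436-like cells 16 of 23 measured NF-kB and cytokine genes were higher and 1 lower, with IL1B at 220.9 CPM and IL1A at 51.5 CPM, BIRC2 at 28.8 CPM (-1.13) and BCL3 (-0.62). Of 37 interferon genes, 10 were higher, with BST2 at 105.1 CPM and IFITM3 at 205.1 CPM, and 5 were lower, including PSMB9 (-1.65) and GBP1 (-1.20). BST2 was higher still in MDA-MB-453-like (371.5 CPM) and MDA-MB-231-like cells (216.7 CPM). IFITM3 was at 208 CPM in MDA-MB-231-like and 166.6 CPM in Hs578T-like cells. Among p53 targets of MDA-MB-436-like cells 5 of 23 were higher, such as SESN2 (1.70) and PLK3 (1.45), and 4 lower, such as TP53INP1 (-1.53). Of 30 G1/S genes 1 was higher, CLSPN (1.07), and 3 lower, with CCNE2 at -1.63 and CCNE1 at 0.85. Of 37 G2/M genes CKS2 (1.21) and TTK (1.03) were higher, with NDC80 at -0.93 and TOP2A at -0.91.

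Of 21 genes of epithelial differentiation 5 were higher and 5 lower in MDA-MB-436-like cells, among them CSTB (2.17) against SFN (-3.58) and LYPD3 (-3.23). KLK5 is another of the 5, at 12.2 CPM, but this is 1.79% of its level in the pool mate HCC38-like, below the median of 2.46% that genes found almost only in HCC38-like cells had in MDA-MB-436-like cells (interquartile range 1.41 to 13.7). The 3 groups at 0 for KLK5 are those of the other pool. Markers of other cell types were mostly absent: of 22 lymphoid and myeloid markers 1 was measured, the lysosomal gene CD68 at 65.0 CPM, and 7 were at 0 in MDA-MB-436-like cells, among them CD3E, MS4A1 and TYROBP. The summed level of that list was 70.3 CPM there and 1.75 to 37.0 CPM elsewhere. Of 12 markers of fibroblasts and endothelium 7 were measured. The summed level of the list was 2225 CPM in Hs578T-like cells and 12.6 to 134.9 CPM elsewhere. In MDA-MB-436-like cells 3 of them were past 2-fold, but COL1A2 at 20.7 CPM and COL6A3 at 16.2 CPM were 3.12% and 3.08% of the level in the pool mate Hs578T-like. That is below the median of 5.13% that genes found almost only in Hs578T-like cells had there (interquartile range 2.78 to 21.4).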

How the data were processed

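The authors deposited raw UMI counts, not normalized, for 36601 genes and 12 multiplexing oligos in 17605 barcodes. Per the file headers, Cell Ranger 6.1.2 made the matrix. Reads were aligned to GRCh38 per the submitters' processing notes. Not given in the sources used here is how cells were called, oligos assigned and reads shared between genes counted. Deposited barcodes carried 1 of 6 suffixes, and in each suffix the same oligo was highest in every barcode.

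Barcodes with at most 20% mitochondrial UMIs were kept and summed per suffix, and counts per 1000000 UMIs (CPM) were computed. A gene was measured from 10 CPM in a group, or in a set of cells. Ratios between groups used a pseudocount of 1 CPM. Depth was 70035248 to 96605074 UMIs per group. Intervals of CPM are exact Poisson, of shares Clopper-Pearson and of ratios conditional binomial. Each is at 95%, covers counting error only and says nothing of variation between cultures. The fold of 1.5 between cells and of 2 between groups set what was called, with no p-value. Cells were not replicates.

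Cells were thinned to 10000 UMIs (seed 1) for shares, spread, list scores and the CDA division. Doublets were called with Scrublet in scanpy 1.11.5 at an expected rate of 0.06, which marked 258 of 15547 cells (1.66%). Cells with transcripts of a pool mate numbered 440, and both kinds were kept in the values given unless stated. Positions came from GENCODE release 29, which matched 94.6% of the gene IDs, and upstream sequence from RefSeq. Scripts ran in Python 3.11.15 with pandas 2.3.3, scipy 1.17.1 and numpy 2.4.6. edgeR 4.0.16 gave normalization factors only. The steps were tested on simulated data.

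Members, gene lists and markers were chosen with earlier results of these data known. Genes named were all 8 members, the 8 nearest profiles of CDA and the 5 nearest of APOBEC3B and APOBEC3C, the 10 most positive and 5 most negative correlations with CDA, and the 2 highest and 2 lowest of each list in MDA-MB-436-like cells. Some other names are said to be picked after their values were seen, and some complete a list's count. Others came under no naming rule, such as DCK, DPYD, UPP1, SAMHD1 and the named neighbours of the APOBEC3 cluster. The plan had set MDA-MB-436-like cells against the next highest group for CDA, but they came second, so the comparison is with the highest other group. For ratios between the top and bottom of 4 equal sets of cells, a minimum of 50 UMIs was set after the data were seen.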

Additional observations from a re-analysis of the deposited data

Results flagged for a closer look

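Barcodes above the mitochondrial limit, which were left out of the values in the report and used only in the alternative with no such limit, also held UMIs of these genes above the floor of 3 UMIs. CDA stood at 48.8 CPM in those of the MDA-MB-231-like group, against 217 CPM in the kept cells (ratio 0.225, 0.166 to 0.297). It stood at 11.8 CPM in those of the MDA-MB-436-like group, against 59.6 CPM (ratio 0.198, 0.142 to 0.268), and at 2.92 CPM in those of the BT-474-like group, against 3.58 CPM. APOBEC3C stood at 31.0 CPM in such Hs578T-like barcodes, against 37.5 CPM, and at 10.9 CPM in such MDA-MB-436-like barcodes, against 11.9 CPM. APOBEC3F stood at 4.53 CPM in such BT-474-like barcodes, against 4.10 CPM. Both APOBEC3C ratios had intervals that spanned 1, while both of the large CDA differences did not.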

How the results depend on the processing

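The count of gene and group pairs at 1 CPM or more was 24 and lay between 23 and 24 under every alternative run. CDA in MDA-MB-436-like cells against the highest other group was at -1.85 (log2) and moved to -1.94 at a limit of 10% mitochondrial UMIs, -1.96 with TMM factors and -1.71 with a pseudocount of 10 CPM. Pairs past 2-fold numbered 6, and 5 with doublets removed, 5 with a pseudocount of 10 CPM and 14 when genes from 1 CPM were admitted. That last limit admits more pairs, and no share over all genes was computed at it, so the 14 cannot be set against the 6. Listed genes past 2-fold in MDA-MB-436-like cells numbered 71, and 36 with a pseudocount of 10 CPM. TMM factors shifted the median of measured genes by -0.21 (log2) in HCC38-like and 0.14 in BT-474-like cells and by under 0.1 in the other groups. The share of MDA-MB-436-like cells with a CDA UMI was 33.4%, and 31.4% with no mitochondrial limit, 19.6% at 5000 UMIs and 46.3% at 20000 UMIs. The spread of CDA was 1.86, and 2.85 at 20000 UMIs. Genes past 1.5-fold with CDA numbered 172, and 260 at the 10% limit, 390 at 5000 UMIs and 102 in cells without a BST2 UMI. The cause was not tested. The 4 comparisons of top and bottom sets past 1.5-fold became 1 with 2 equal sets of cells and 0 at 2-fold. Ranked by Pearson r, 0 of the 8 profiles nearest to CDA were shared. DHRS2 reversed to -1.41 (log2) at 20000 UMIs. Of the values for single genes under an alternative, 41 moved by more than counting error and 1 reversed. Of 95 that compare sets of cells, 10 fell under 1.5-fold: 5 with 2 equal sets, 2 with doublets removed, 1 with BST2 left out of the score and 2 in cells without a BST2 UMI. Removing doublets from the comparison of sets, leaving BST2 out of the score and using cells without BST2 alone were chosen after seeing the data. Leaving out replicates was not possible with 1 culture per line. No paired analysis was possible because each line is 1 culture and the 2 samples are 2 libraries of the same cells.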

Other observations

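APOBEC3C and APOBEC3G were both highest in Hs578T-like and second in HCC38-like cells, while APOBEC3B was lowest in HCC38-like cells. The 6 groups are single cultures, so this order is a description. Of the genes of pyrimidine breakdown, DPYD, which starts it, was at 45.3 CPM in MDA-MB-231-like and 38.1 CPM in Hs578T-like cells. It was at 12.9 CPM in HCC38-like, 8.10 CPM in MDA-MB-436-like, 2.63 CPM in MDA-MB-453-like and 0.814 CPM in BT-474-like cells. UPP1, uridine phosphorylase, was at 271.4 CPM in MDA-MB-436-like and 177.2 CPM in MDA-MB-231-like cells. Hs578T-like cells had 119.5 CPM of UPP1 and HCC38-like cells 113.1 CPM, against 11.3 CPM in BT-474-like and 3.65 CPM in MDA-MB-453-like cells. SAMHD1, which degrades dNTPs, was at 51.8 CPM in HCC38-like and 37.8 CPM in MDA-MB-231-like cells and at 2.07 to 11.7 CPM in the other 4 groups.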
